A study of Mus musculus with 16 samples.

Results

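The 10 genes described here mark mesothelium or simple epithelium and were followed through 8 RNA sequencing libraries of mouse lung fibroblast cultures. They are 5 mesothelial markers (Msln, Upk3b, Upk1b, Wt1 and Lrrn4), the 4 keratins of simple epithelia (Krt7, Krt8, Krt18 and Krt19) and Cdh1. They were taken by symbol from the 54331 genes of the deposited table, and all 10 were found. All 10 passed the filter for testing, a mean of at least 10 normalized counts over the libraries, which 15527 genes passed. The cells were primary lung fibroblasts of C57BL/6 mice, either wild type (WT) or labelled as knockout for ST2, the receptor of IL-33 (KO). Every culture received an adenovirus, which coded for IL-33 in its full-length form (FL) or its mature form (M), or for no insert (NULL), and RNA was taken 72 h later. Each genotype had 2 NULL libraries, 1 FL library and 1 M library. Neither the age of the mice nor the source of each culture is given in the sources used here, so p-values measure the spread between these libraries, which may be technical.

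Mesothelium is the sheet of flat cells that covers the lung and lines the pleural cavity, and it descends from mesoderm. It combines epithelial traits, among them keratin filaments and a polarized surface, with mesenchymal ones such as vimentin, and can be carried into cultures made from minced lung. Keratins form filaments as pairs of a type II chain (Krt7 and Krt8) with a type I chain (Krt18 and Krt19), and Krt8 with Krt18 is the basic pair of simple epithelia. The same keratins and E-cadherin are also made by airway and alveolar epithelium, so they do not tell mesothelium from other epithelia.

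Against the fibroblast title, Vim, the mesenchymal filament gene, was read at 55134.5 to 66622.4 normalized counts in the 8 libraries. Vim is also made by mesothelium. The epithelial adhesion gene Epcam did not exceed 5.25. Other epithelial genes were read higher, such as Spint2 (102.5 to 395) and Esrp2 (182 to 287), and the macrophage gene Lyz2 was at 14733 to 35415. The table with these column titles is identical, apart from rounding in 2 of 434648 values, to the table that the labels tie to unseparated lung cells, and what the cells were is known from the titles alone. Il1rl1, which encodes ST2, was not lower in KO, with 18.3 and 106 normalized counts for WT NULL and 73.1 and 69.2 for KO NULL. A total per gene does not show a missing exon, and KO stands for the label throughout. The WT M library stood apart from the other 7. Against the WT NULL pair it differed at 7650 of 15527 genes, and the WT FL library at 1148. Results that rest on it are given with that limit. In bulk RNA, fewer cells of a type and less RNA per cell cannot be told apart.

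With NULL virus, Krt7, Krt8 and Krt18 were about an order of magnitude lower in KO than in WT cultures. Krt7, the type II keratin of ducts and mesothelium, had 371 and 380 normalized counts in WT and 19.8 and 40.9 in KO. The groups lay far apart, and the fitted KO level was 12.8-fold lower (log2 -3.67, SE 0.31, limma adjusted p = 0.0002). Krt8, its relative in most simple epithelia, was at 82.0 and 108 in WT and at 7.09 and 9.19 in KO. That was 10.5-fold lower (log2 -3.39, SE 0.28, limma adjusted p = 0.0002). Krt18, the type I partner of Krt8, was at 74.8 and 73.2 against 7.09 and 12.02, and was 7.30-fold lower (log2 -2.87, SE 0.32, limma adjusted p = 0.0008). The KO values rest on few reads: about 6 and 13 for Krt8 and 6 and 17 for Krt18 in the KO NULL pair, taking the most frequent low value of a library as 1 read. All folds are on the scale of log2(normalized counts + 1), which understates changes of such low genes.

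Krt8 and Krt18 are neighbours on chromosome 15 (GRCm38), where they are read in opposite directions, and 23697 bases lie between the 2 gene bodies. Krt8 spans 101996698 to 102004482 on the minus strand and Krt18 spans 102028180 to 102032027 on the plus strand, and Krt7 lies on the same chromosome at 101411043 to 101430313. The RefSeq promoter table (GRCm38.p6, 250 bases before to 50 after the RefSeq start) holds 5 of the 10 genes. The promoters of the 3 keratins that were low in KO with NULL virus are shown. Capitals mark every match to the motifs searched on both strands.
Krt7 (chr15:101412153-101412452, plus strand): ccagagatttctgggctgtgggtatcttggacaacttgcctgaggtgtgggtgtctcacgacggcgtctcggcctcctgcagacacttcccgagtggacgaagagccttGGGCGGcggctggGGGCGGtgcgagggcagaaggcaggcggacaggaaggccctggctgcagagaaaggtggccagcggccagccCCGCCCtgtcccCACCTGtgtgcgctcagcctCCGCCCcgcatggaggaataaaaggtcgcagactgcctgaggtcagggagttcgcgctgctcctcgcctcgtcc
Krt8 (chr15:102004293-102004592, minus strand): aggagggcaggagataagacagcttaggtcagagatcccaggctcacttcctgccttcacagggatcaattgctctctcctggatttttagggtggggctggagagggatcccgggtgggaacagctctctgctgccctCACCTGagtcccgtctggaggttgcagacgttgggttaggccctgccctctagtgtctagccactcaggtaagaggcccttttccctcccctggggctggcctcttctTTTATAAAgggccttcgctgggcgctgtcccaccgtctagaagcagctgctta
Krt18 (chr15:102027966-102028265, plus strand): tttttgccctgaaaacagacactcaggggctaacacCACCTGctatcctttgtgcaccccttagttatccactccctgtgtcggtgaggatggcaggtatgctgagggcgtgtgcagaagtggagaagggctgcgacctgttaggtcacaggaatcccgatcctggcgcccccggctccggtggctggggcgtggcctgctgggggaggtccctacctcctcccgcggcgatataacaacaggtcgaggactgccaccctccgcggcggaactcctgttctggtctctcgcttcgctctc
The motifs were AP-1 (TGANTCA), TEAD (GGAATG), the Snail/ZEB E-box (CACCTG), the TATA box (TATAAA), the Sp1 GC box (GGGCGG), CRE (TGACGTCA) and WT1/EGR (GCGNGGGNG). CACCTG was present in all 3 keratin promoters and in neither the Upk3b nor the Lrrn4 promoter. It occurs in 20.2% of the 32851 promoters searched. Its first base, counted from the RefSeq start, was at -44 in Krt7, -111 in Krt8 and -214 in Krt18. The gene bodies given above do not begin at these RefSeq starts, and the whole Krt7 window lies inside the Krt7 gene body. Krt7 also held 4 matches to GGGCGG (35.7% of promoters). The TATAAA matches of Krt8 (13.6% of promoters) overlap each other on opposite strands. Upk3b and Lrrn4 each had a match to GGAATG (14.7% of promoters), and none of the 5 promoters held TGANTCA (7.81%), TGACGTCA (1.79%) or GCGNGGGNG (12.3%). These are matches of letters and no evidence of binding.

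Of the 5 mesothelial markers, 4 were also lower in KO with NULL virus, with smaller fitted factors than these keratins, and Lrrn4 was not. Upk1b, a tetraspanin of the uroplakin family, was at 190 and 200 normalized counts in WT and 62.1 and 65.9 in KO (3.01-fold lower, limma adjusted p = 0.0003). Upk3b, a uroplakin of the mesothelial surface, was at 299 and 282 against 112 and 102 (2.70-fold lower, limma adjusted p = 0.0004). Neither these 2 genes nor Msln and Wt1 overlapped between the NULL pairs, and 34.6% of tested genes likewise lay wholly lower in KO NULL. Msln, which encodes the surface glycoprotein mesothelin, was at 171 and 175 against 72.8 and 80.9 (2.23-fold lower, limma adjusted p = 0.0012). Wt1, the zinc finger transcription factor of developing mesothelium, was at 513 and 503 against 263 and 259 (1.94-fold lower, limma adjusted p = 0.0003). The spread within each pair was small beside these gaps, with the largest log2 difference between NULL libraries of a pair at 0.15 for these 4 genes.

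Lrrn4, Krt19 and Cdh1 did not pass the test between genotypes with NULL virus. Lrrn4, a leucine-rich repeat membrane protein gene used as a mesothelial marker, was at 27.3 and 28.0 normalized counts in WT and 36.6 and 32.5 in KO (log2 0.31, SE 0.28, limma adjusted p = 0.43). Krt19, the smallest type I keratin, was at 59.5 and 73.2 against 78.0 and 86.3 (log2 0.31, SE 0.17, limma adjusted p = 0.22). Cdh1, which encodes E-cadherin, the adhesion molecule of epithelial junctions, was at 16.8 and 23.7 against 14.2 and 11.3 (log2 -0.62, SE 0.34, limma adjusted p = 0.21). So 7 of the 10 genes were called lower in KO and none higher. Of all 15527 tested genes 16.6% were called lower and 32.8% in either direction. Without regard to the test, 8 of the 10 lay wholly below the WT NULL pair (34.6% of tested genes) and Lrrn4 and Krt19 wholly above it (33.8%). The median log2 change was -1.30 over the 10 genes and -0.0022 over all tested genes. The 7 calls take their spread from the NULL pairs. With no filter on low values, Krt7 and Krt18 no longer passed (limma adjusted p = 0.062 and 0.057). In the fit that treats FL and M as replicates, none of these 7 passed (limma adjusted p = 0.057 for Krt7 to 0.50 for Msln), and there the gap from WT FL to WT M counts as spread.

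**Figure D1:**
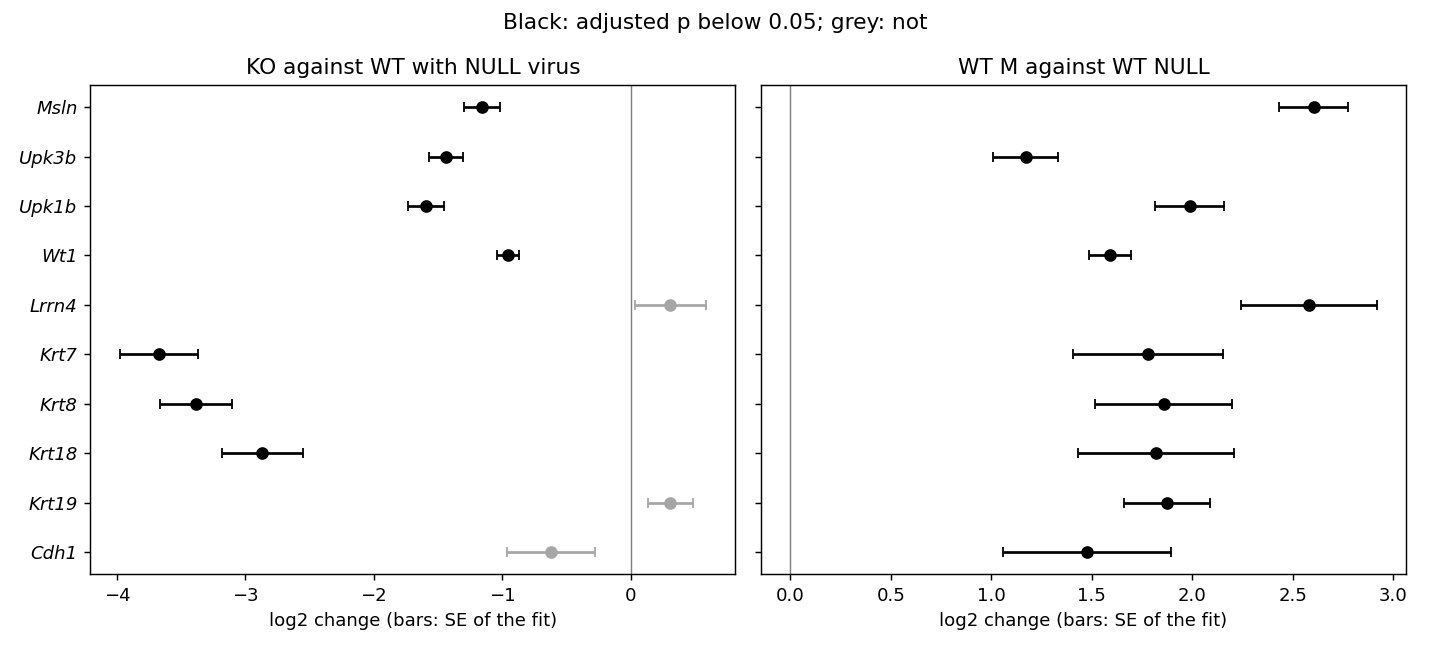
Fitted log2 change of each gene for KO against WT with NULL virus (left, 2 libraries against 2) and for the WT M library against the WT NULL pair (right, 1 library against 2); points are estimates and bars their standard errors. On the left Krt7, Krt8 and Krt18 lie between -3.67 and -2.87, 4 mesothelial markers between -1.59 and -0.96, and Lrrn4, Krt19 and Cdh1 in grey did not pass; on the right all 10 are above 0.

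The ratio of the type I keratins Krt19 and Krt18 differed between the WT and KO libraries, and it was not tested. Per kb of the principal transcript, Krt19 stood at 0.725 and 0.912 times the Krt18 level in the WT NULL pair, 1.27 times in WT FL and 0.846 times in WT M. In the KO libraries the ratio was 10 and 6.54 in the NULL pair, 9.27 with FL and 22.2 with M. The ranges do not overlap. The levels of Krt18 did not overlap either, whereas those of Krt19 did, so the ratio largely restates the lower Krt18 level. The ratio of Krt8 to Krt18 per kb was 0.717 to 1.08 in the WT libraries and 0.367 to 2.50 in the KO libraries, where Krt8 and Krt18 rest on about 5 to 17 reads a library.

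**Figure D2:**
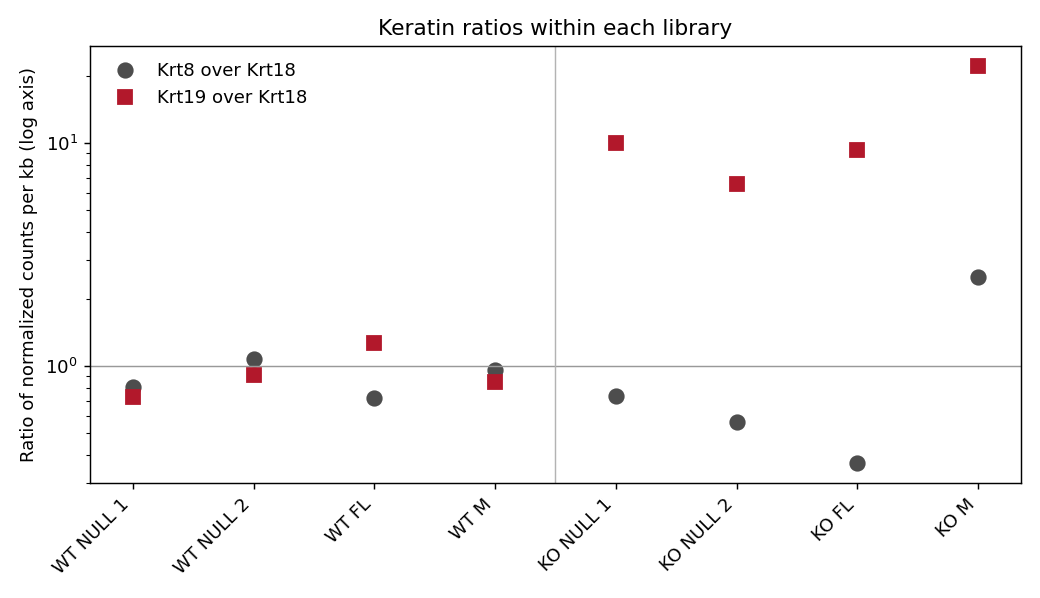
Ratio of Krt8 to Krt18 (circles) and of Krt19 to Krt18 (squares) in each library, in normalized counts per kb on a log axis. In the 4 WT libraries both ratios lie near 1, and in the 4 KO libraries the Krt19 ratio lies between 6.54 and 22.2.

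Markers of other cell types also differed between the genotypes in the NULL libraries. All 8 alveolar type 2 markers in the table were lower in both KO NULL libraries than in both WT NULL libraries, and 5 of 6 tested ones passed. Their summed level was 4575 and 4113 normalized counts in WT NULL and 2504 and 2445 in KO NULL. The lipid transporter gene Abca3 made up most of it, at 3114 and 2986 against 2461 and 2392 (1.26-fold lower). Napsa, at 54.7 and 55.5 against 41.9 and 52.2, did not pass. Sftpc, the surfactant protein C gene that defines type 2 cells, was at 969 and 765 against 1.36 and 0, and Sftpd, Lamp3 and Slc34a2 were listed at 0 in both KO NULL libraries. Endothelial markers summed to 656 and 678 in WT NULL and 260 and 245 in KO NULL, with 5 of 8 tested members lower. The 9 airway markers, such as Scgb1a1 and Foxj1, summed to at most 35.04 in any library and none was tested. Of 6 tested pan-epithelial genes, Grhl1 and Esrp2 were higher in KO (1.90-fold and 1.35-fold) and Spint2 was lower (2.51-fold). Macrophage markers were higher at 5 and lower at 1 of 13 tested, and fibroblast markers higher at 7 and lower at 5 of 12. With IL-33 virus, Sftpc was at 162 (FL) and 156 (M) in KO and at 233 (FL) and 147 (M) in WT. Krt8 was at 6.97 (FL) and 18.8 (M) in KO and at 44.9 (FL) and 343 (M) in WT. The part of these other cell types in the keratin difference was not tested.

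Of the 9 further mesothelial genes that were listed, 7 could be tested between the NULL pairs, and they did not move as a block. Nkain4, a membrane protein gene enriched in mesothelium, was at 1559 and 1716 normalized counts in WT and 629 and 674 in KO (2.51-fold lower, limma adjusted p = 5.21e-05). Cldn15, a tight junction claudin gene, and Bnc1, which encodes the transcription factor basonuclin 1, were lower too (2.24-fold and 1.44-fold; limma adjusted p = 0.015 and 0.031). Aldh1a2, which encodes the retinoic acid synthesizing enzyme of mesothelium, was higher in KO, at 1506 and 1526 against 869 and 886 (1.73-fold, limma adjusted p = 7.94e-05). Gpm6a, Rspo1 and Pdpn did not pass. Genes of the keratin linkage and of adherens junctions split evenly, with 5 higher and 5 lower of 16 tested, among them Jup, the plakoglobin gene, which was 1.82-fold lower (limma adjusted p = 0.0002), and Cdh2, the N-cadherin gene, 1.29-fold lower (limma adjusted p = 0.0011). Of 3 tested other keratins, Krt20, a keratin of gut and urothelium, was higher in KO (1.78-fold, limma adjusted p = 0.0027).

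Across all inserts, the levels of 7 genes in the 4 KO libraries lay wholly below those in the 4 WT libraries, a pattern that 9% of tested genes showed, and none lay wholly above (11.5%). These were Msln, Upk3b, Upk1b, Wt1, Krt7, Krt8 and Krt18. Averaged over inserts, 6 of the 10 were called lower (5.08% of all tested genes were, and 6.86% were called higher): Krt7 by 11.2-fold, Krt8 by 10.2-fold, Krt18 by 9.08-fold, Upk1b by 5.45-fold, Upk3b by 4.14-fold and Wt1 by 3.40-fold (limma adjusted p = 0.012 to 0.035). Msln missed the threshold (log2 -1.90, SE 0.63, limma adjusted p = 0.10). In this fit FL and M are replicates, and their difference is part of the spread. The count of 6 was 8 without the WT M library, when Msln also passed (log2 -1.09, limma adjusted p = 0.0009) and Krt19 was higher in KO (log2 0.70, limma adjusted p = 0.0049), and 9 without WT FL. It was 1 without KO NULL 2 or KO FL and 0 without WT NULL 1, WT NULL 2, KO NULL 1 or KO M. Calls over all tested genes moved the same way, from 1853 to 6161 without WT M, 5944 without WT FL and 552 to 644 without any 1 of the other 6.

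**Figure D3:**
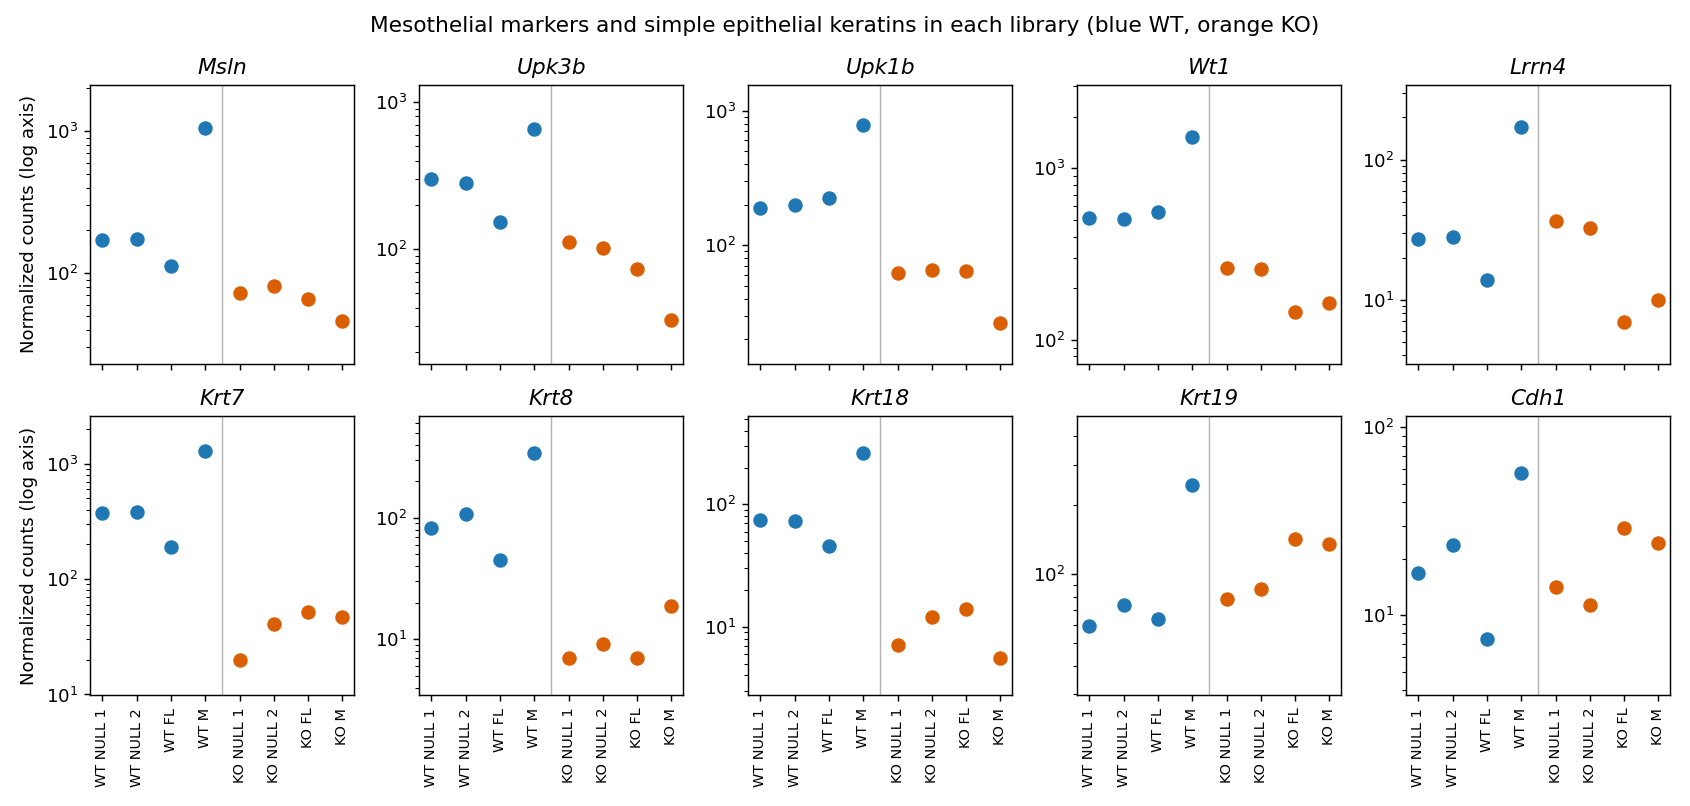
Level of each gene in normalized counts in the 8 libraries, 1 point a library, on log axes of differing range; WT libraries are blue and KO libraries orange. All 10 genes are highest in WT M, and Msln, Upk3b, Upk1b, Wt1, Krt7, Krt8 and Krt18 are lower in every KO library than in every WT library.

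In the WT M library all 10 genes were higher than in the WT NULL pair, and each had its highest level of the 8 libraries there. Of all tested genes, 22.5% were called higher in this comparison, 26.8% lower and 49.3% in either direction, and 27.3% had their highest level in WT M. The p-values assume that this lone library varies like the NULL pairs, and there is no repeat of it. Msln was at 1055 normalized counts against 171 and 175 (6.08-fold, log2 2.60, SE 0.17, limma adjusted p = 3.84e-05), and Lrrn4 at 170 against 27.3 and 28.0 (5.98-fold, log2 2.58, SE 0.34, limma adjusted p = 0.0009). These were the largest folds of the 10. Upk1b reached 776 (3.96-fold), Wt1 1529 (3.01-fold) and Upk3b 655 (2.25-fold, limma adjusted p = 0.0012), the smallest fold. The 4 keratins rose by similar factors: Krt19 to 245 (3.66-fold), Krt8 to 343 (3.62-fold), Krt18 to 264 (3.53-fold) and Krt7 to 1291 (3.43-fold; limma adjusted p = 0.0005 to 0.0078). Cdh1 reached 57.4 against 16.8 and 23.7 (2.78-fold, SE 0.42 on the log2 scale, limma adjusted p = 0.024). With no filter on low values, Krt8, Krt18, Cdh1 and Krt7 no longer passed in WT M (limma adjusted p = 0.056, 0.090, 0.10 and 0.16). Together the 10 genes made up 62.2 and 63.7 ppm of the summed normalized counts of the WT NULL libraries, 50.3 ppm of WT FL and 267 ppm of WT M, against 18.3 to 24.9 ppm in the KO libraries.

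Further mesothelial genes went both ways in the WT M library. Of 7 tested, 5 were higher and 2 lower. Aldh1a2 was at 3523 normalized counts against 869 and 886 (4.01-fold, limma adjusted p = 1.48e-06), Bnc1 at 470 against 131 and 137 (3.497-fold), Rspo1, a Wnt agonist gene, at 185 against 46.6 and 40.2 (4.21-fold) and Gpm6a, a membrane glycoprotein gene, at 112 against 44.1 and 47.4 (2.41-fold). Podoplanin, encoded by Pdpn and also made by fibroblasts and type 1 cells, was 1.46-fold higher. Against these, Nkain4 fell from 1559 and 1716 to 214 (7.62-fold, limma adjusted p = 1.84e-06) and Cldn15 from 63.4 and 55.7 to 7.58 (7.05-fold, limma adjusted p = 0.0005). Muc16 and Calb2, which encode the mesothelial antigens CA125 and calretinin, were too low to test, with 37.95 and 5.03 in WT M and at most 18.1 and 2.325 elsewhere.

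Genes shared by most epithelia had their highest sum in the WT M library, at 1068 normalized counts against 494 to 660 in the other 7. Spint2 (395), Esrp2 (274) and St14 (206) made up most of that sum. Of the 20 listed, 10 were highest in WT M, as were 27.3% of all tested genes. Some of these 10 were near the floor, such as Epcam (5.25) and Ehf (4.97). Of the 20, 6 were high enough on average to test and 4 were called higher in WT M: St14, a membrane protease gene (2.81-fold), Grhl1, an epithelial transcription factor gene (2.75-fold), Spint2, a protease inhibitor gene (1.39-fold), and Esrp2, a splicing regulator gene (1.38-fold; limma adjusted p = 0.0042 to 0.041). St14 and Spint2 had their highest level of the 8 libraries in WT M, and Grhl1 and Esrp2 did not. Grhl1 was at 44.0 normalized counts in WT M and 28.7 to 46.1 in the KO libraries. Esrp2 was at 274 in WT M and 252 to 287 in the KO libraries. Epcam was at 5.25 in WT M against 4.91 and 1.88 in WT NULL. Dsp, which encodes desmoplakin, the link from keratin filaments to desmosomes, was at 498 against 160 and 145 (3.26-fold, limma adjusted p = 0.0007). Among the 16 tested linker and junction genes 6 were higher and 4 lower, the latter including Ctnnd1, the p120 catenin gene (2.05-fold lower), and Plec, the plectin gene (1.66-fold lower). Krt20 was the 1 of 3 tested other keratins that was higher (1.87-fold), and Krt1, Krt4, Krt6a and Krt6b were listed at 0 in all libraries. Of 8 genes for mesenchymal transcription factors, vimentin and fibronectin, 5 were lower and none was higher: Twist2 (2.64-fold), Fn1 (2.18-fold), Zeb1 (1.94-fold) and Snai1 (1.51-fold) were the clearest.

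Markers of other cell types moved in the same library. Macrophage markers summed to 49861 normalized counts in WT M and to 20927 to 25592 in the other 7 libraries; 12 of 13 tested were higher, such as Lyz2 (2.32-fold) and C1qb (2.82-fold), while the alveolar macrophage gene Marco did not exceed 1.16 in any library. Of 12 fibroblast markers 9 were lower and none was higher, among them Pdgfrb (4.55-fold) and Lum (10.8-fold). Alveolar type 2 markers were lower than in WT NULL at 5 of 6 tested genes. Their sum was 2138, of which Abca3, a lipid transporter gene also read in every other library, made up 1864. Sftpc, Sftpb and Slc34a2 were at 147, 54.3 and 21.1 in WT M, below WT NULL and above KO NULL. In the WT FL library these genes also lay below WT NULL, at 233, 49.6 and 23.6, but they did not pass the test there. The median log2 change of the tested type 2 markers was -1.82 in WT M and -1.81 in WT FL. Endothelial markers were lower at 5 of 8, and Kdr, a VEGF receptor gene, was higher (2.02-fold, limma adjusted p = 0.0079). Alveolar type 1 markers split, with 2 higher, Clic5 by 5.92-fold and Akap5 by 2.001-fold, and 2 lower, Rtkn2 by 4.26-fold and Ager by 3.38-fold. The part of these cell types in the rise of the 10 genes was not tested.

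**Figure D4:**
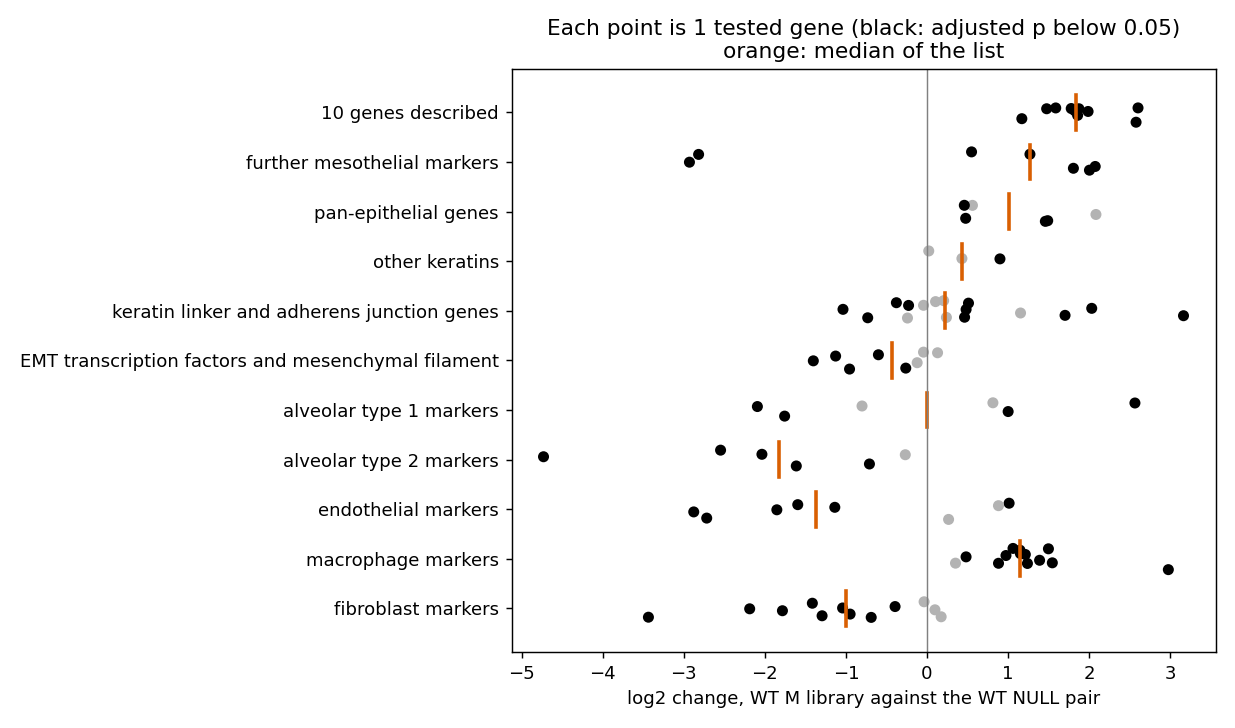
Fitted log2 change in the WT M library against the WT NULL pair for every tested gene of each list, 1 point a gene, with the list's median as an orange bar. The 10 genes lie between 1.17 and 2.60, the further mesothelial markers between -2.93 and 2.08, and fibroblast, endothelial and alveolar type 2 medians are below 0.

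The WT FL library did not share this rise. Against the WT NULL pair, Upk3b was lower, at 154 normalized counts (1.88-fold, log2 -0.91, SE 0.16, limma adjusted p = 0.022), and the other 9 genes did not pass; 3.9% of all tested genes were lower, 3.5% higher and 7.39% were called in either direction. Krt7 was at 189, Krt8 at 44.9, Krt18 at 46.0 and Lrrn4 at 13.9, each below both WT NULL libraries, with fitted log2 values of -0.98, -1.05, -0.68 and -0.94. Msln at 113 and Cdh1 at 7.50 were also below their NULL pairs (log2 -0.61 and -1.31). Upk1b and Wt1, at 223 and 555, lay slightly above theirs. Both inserts left Upk1b and Wt1 above the NULL pair (24% of tested genes) and no gene below it (27.9%). The call on Upk3b was lost without any 1 of the 4 NULL libraries (limma adjusted p = 0.061 to 0.076), and without KO NULL 1 Krt7 was called lower instead (limma adjusted p = 0.048). Taking FL and M as the replicates of IL-33 in WT, none of the 10 genes passed with limma, 0 had an unadjusted p below 0.05 (22.1% of all tested genes had), and 0.264% of all genes were called (0.18% higher and 0.0837% lower). Without the WT M library the estimate turned negative for 8 of the 10, and without the WT FL library all 10 were called higher, as part of 7491 calls among all tested genes against 41 with both.

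In KO cells with IL-33 virus, Wt1 with FL was the 1 value of the 10 genes in either library that passed the test. Wt1 had 263 and 259 normalized counts with NULL virus, 145 with FL and 163 with M. The FL value was called lower (1.80-fold, log2 -0.84, SE 0.10, limma adjusted p = 0.045), the 1 call among the 10 where 0.167% of all tested genes were lower and 0.0708% higher (0.238% in all). Lrrn4 was at 36.6 and 32.5 in the NULL pair. The IL-33 libraries held 6.97 (FL) and 9.95 (M), about 6 and 9 reads (log2 -2.16 and -1.70, limma adjusted p = 0.10 and 0.34). Upk3b was at 112 and 102 against 73.2 and 33.2, and the value with M just missed the threshold (log2 -1.66, SE 0.16, limma adjusted p = 0.053). Msln was at 65.5 and 46.0, below its NULL pair of 72.8 and 80.9. Upk1b, at 64.5 with FL, lay within its NULL pair of 62.1 and 65.9, and at 26.3 with M it lay below.

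Krt19 and Cdh1 were higher with either insert in KO, without passing the test. Krt19 was at 142 with FL and 135 with M against 78.0 and 86.3 (log2 0.78 and 0.71, limma adjusted p = 0.23 and 0.51). Cdh1 was at 29.1 and 24.3 against 14.2 and 11.3 (log2 1.14 and 0.89, limma adjusted p = 0.33 and 0.66). Krt7 was at 52.2 and 46.7 against 19.8 and 40.9, above both NULL values. Krt8 and Krt18 showed no common direction, with Krt8 at 6.97 and 18.8 and Krt18 at 13.9 and 5.53. In all, 4 genes (Msln, Upk3b, Wt1 and Lrrn4) lay below the NULL pair in both IL-33 libraries and 3 (Krt7, Krt19 and Cdh1) above it, patterns that 22% and 20.6% of tested genes showed.

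No gene of the 10 was called in the KO M library with limma, where 0.0322% of all tested genes were (0.00644% lower), and 7 of the 10 had an unadjusted p below 0.05, as did 8.17% of all tested genes. Taking FL and M as replicates, none passed either, 0 had an unadjusted p below 0.05 (2.14% of all tested genes had) and 0.0193% of all genes were called. With the spread from the NULL pairs alone, Upk3b and Wt1 were lower on average (log2 -1.10 and -0.76, limma adjusted p = 0.0496 for each). The call on Wt1 in the KO FL library was lost without any of the 4 NULL libraries and without WT M (limma adjusted p = 0.065). Of the further mesothelial genes, Gpm6a stood at 31.9 and 23.3 in the KO NULL pair and 3.49 and 3.32 with FL and M, Rspo1 at 31.3 and 23.6 against 16.0 and 4.34, and Bnc1 at 95.7 and 89.7 against 58.1 and 59.7. None of the 7 tested passed between IL-33 and NULL in KO. Alveolar type 2 markers did: Sftpc (log2 6.70), Sftpb (5.49) and Slc34a2 (4.75) were higher with IL-33 virus (limma adjusted p = 0.011 to 0.015), and no other gene of the 15527 was called. In this fit the gap between FL and M counts as spread, and even Il33 was not called. Il33 was at 216 and 214 normalized counts in KO NULL, 1.08e+06 in KO FL and 81110 in KO M. So the lack of a call there does not show the lack of a change. The part of type 2 cells in the values of Krt19 and Cdh1 was not tested.

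**Figure D5:**
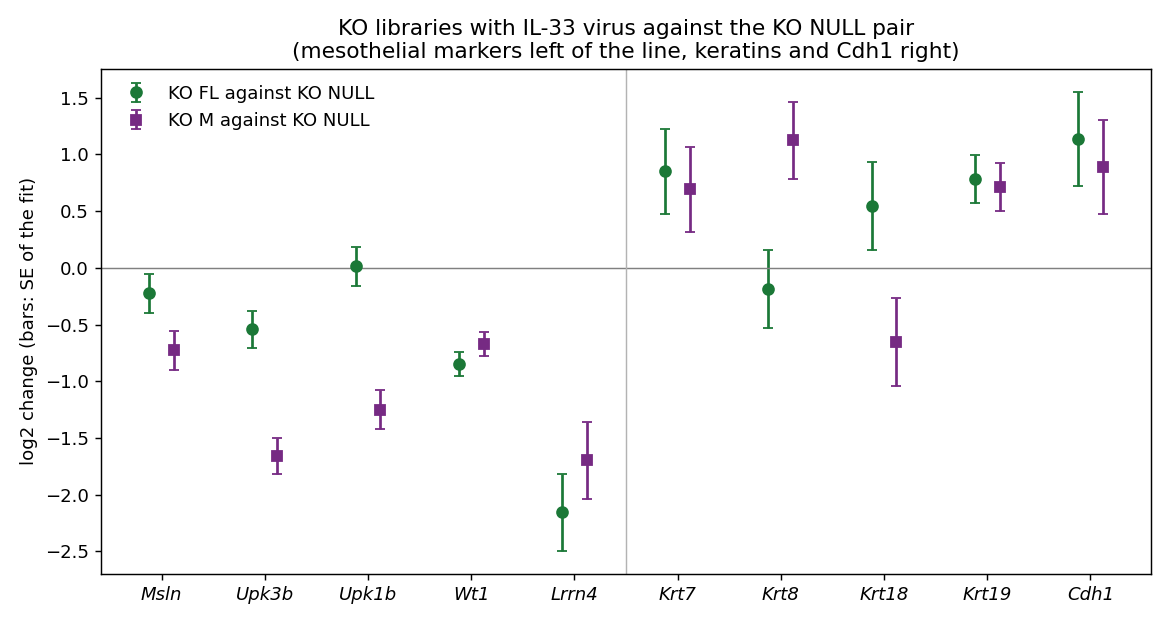
Fitted log2 change of each gene in the KO FL library (circles) and the KO M library (squares) against the KO NULL pair, with standard errors; the vertical line parts the mesothelial markers from the keratins and Cdh1. Lrrn4 lies at -2.16 and -1.70 and Krt19 at 0.78 and 0.71; of these 20 values only Wt1 with FL passed the test.

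The effect of the M virus itself differed between the genotypes at 7 of the 10 genes, each with a lower value in KO (14.6% of all tested genes, and 33.4% in either direction). Subtracting the change in WT from that in KO gave a log2 difference of -4.28 for Lrrn4 (SE 0.48, limma adjusted p = 0.0008), -3.33 for Msln (SE 0.24, limma adjusted p = 0.0001), -3.24 for Upk1b, -2.83 for Upk3b and -2.26 for Wt1. All 5 mesothelial markers therefore passed this test. Among the keratins, Krt18 (-2.47, SE 0.55, limma adjusted p = 0.014) and Krt19 (-1.16, SE 0.30, limma adjusted p = 0.026) passed. Krt7 (-1.09, SE 0.53, limma adjusted p = 0.16), Krt8 (-0.73, SE 0.48, limma adjusted p = 0.28) and Cdh1 (-0.59, SE 0.59, limma adjusted p = 0.48) did not. With no filter on low values, Krt18 and Krt19 no longer passed (limma adjusted p = 0.11 for each). The call on Krt19 was also lost without WT NULL 1, KO NULL 1 or KO NULL 2, and Krt7 was called lower without KO NULL 1. Each M library is alone in its genotype. The Il33 transcript itself made up 1.04% of the normalized counts in WT M and 0.292% in KO M, so genotype and vector dose cannot be told apart.

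Some of the 10 profiles over the 8 libraries lay nearer to each other than others did. After each gene's mean was taken off on the log2 scale, the nearest pairs by root mean square difference were Krt7 with Krt8 (0.43), Krt7 with Krt18 (0.44), Upk3b with Upk1b (0.44) and Krt19 with Cdh1 (0.44). Krt8 with Krt18 was at 0.68. Among 11519 other protein-coding genes with a mean of at least 50, the nearest to Msln were Lpcat2 (0.32), Sytl1 (0.33), Dsp (0.34), Shroom2 (0.35) and Btbd11 (0.40). Sytl1, for example, was at 174 and 172 normalized counts in WT NULL, 607 in WT M and 44.8 to 79.1 in the KO libraries. The nearest to Krt18 were Nrk (0.53), Baiap2l1 (0.54), Esam (0.55), Dpp6 (0.56) and Stk26 (0.59). The nearest to Cdh1 were Erc2, Cdh6, Hbegf, Lrp2 and Arhgef26 (0.42 to 0.45), and Hbegf, which encodes an EGF family ligand, was at 2218 in WT M and 431 to 749 in the other 7 libraries. The WT M library carries much of the variation in these profiles.

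Near-identical copies of the keratins were looked for. Of the annotated transcripts of other genes, the pseudogene Krt8-ps shares 32.2% of the 31-base words of Krt8 and the pseudogene Gm5200 shares 9.31% of those of Krt18. Both were listed at 0 in all 8 libraries. The antisense gene Gm671 overlaps Krt7 and the noncoding gene Gm36026 overlaps Krt8, and their levels did not exceed 3.003 and 2.15 normalized counts.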

How the data were processed

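The deposited table holds normalized counts per gene (a signal unit, not whole numbers) for 8 libraries. The authors made them with Salmon and DESeq2 on GRCm38.p6, per the submitters' processing notes; versions are not given in the sources used here. Library totals were 2.39e+07 to 2.92e+07 normalized counts. The most frequent low value put 1 read at 0.706 to 1.18 normalized counts, a depth of about 2.37e+07 to 3.98e+07 reads. Of values up to 12, 50.6% to 70.9% were whole multiples of it within 0.02 steps, so whole reads were not recovered and no count test was run.

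IDs were matched to GENCODE M21 (GRCm38) without version numbers, 54097 of 54331 with a symbol. Values were tested with the limma-trend method in R 4.3.3 (limma 3.58.1), two-sided, with p-values adjusted by Benjamini-Hochberg over 15527 genes and a threshold of 0.05, on log2(value + 1). A fit of 6 groups (genotype by insert; 2 residual and 4.78 prior degrees of freedom) gave the NULL comparison and each lone IL-33 library. A lone library is taken to vary as the NULL pairs do. A fit of 4 groups, with FL and M as the replicates of IL-33 (4 residual and 2.82 prior), gave the pooled comparisons. Levels per kb used the longest principal transcript. All 10 genes were named; from each marker list up to 4 genes with the smallest p in WT M and up to 2 between the NULL pairs, with other list members named after their values were seen. The genes and lists were chosen with earlier results of these data known. The 5 nearest profiles to Msln, Krt18 and Cdh1 were those with the smallest root mean square difference. Alternatives were other pseudocounts and filters, TMM and quantile scaling, the other fit, the replicate number as a block, and omission of single libraries. Python 3.11.15, pandas 2.3.3, numpy 2.4.6 and matplotlib 3.10.9 were used. The unseparated lung cells were not analysed here.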

Additional observations from a re-analysis of the deposited data

Results flagged for a closer look

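The effect of the M virus differed between KO and WT at 7 of the 10 genes by a test of the difference itself (limma, 6 groups, adjusted over 15527 genes). Subtracting the change in WT from that in KO gave -3.33 for Msln, -2.83 for Upk3b, -3.24 for Upk1b, -2.26 for Wt1, -4.28 for Lrrn4, -2.47 for Krt18 and -1.16 for Krt19 on the log2 scale. Each value rests on 1 M library per genotype, set against 2 NULL libraries, and genotype and vector dose cannot be told apart. The call on Krt19 was lost without WT NULL 1, KO NULL 1 or KO NULL 2.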

How the results depend on the processing

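A pseudocount of 0.5 or 8, TMM factors and a mean of at least 50 changed no call or direction of any gene of the 10 that could still be tested. TMM and quantile scaling moved the median of all genes by at most 0.032 (log2). Quantile scaling ended the call on Cdh1 in WT M (limma adjusted p = 0.078). With no filter on low values, 6 genes were called in WT M (10 in the text), 0 in WT FL (1) and 3 lower in KO M (0). In the fit of 4 groups, 0 were called for KO against WT with NULL virus (7). In the fit of 6 groups, 4 were higher for IL-33 in WT (0) and 2 lower in KO (0). Over all genes, these settings called 6051 in WT M (7650), 814 in KO M (5), 664 for KO with NULL virus (5096), 5814 for IL-33 in WT (41) and 27 in KO (3). Why the count changed with the filter was not tested; the fits differ in whether the gap between FL and M counts as spread.

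The numbers of the NULL libraries went with no large shared shift: the differences between NULL 1 and NULL 2 in WT and KO correlated at 0.023 over 15527 genes. A single correlation over genes cannot show whether the libraries were paired. With the number as a replicate block, 0 genes were called in WT FL and 0 in KO FL (1 each), and 4 for KO against WT averaged over inserts (6). It also ended the call on Cdh1 in WT M (limma adjusted p = 0.050) and changed no other call.

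Leaving out 1 library in turn gave counts of 7 to 7 for KO against WT with NULL virus, 9 to 10 for WT M, 6 to 7 for the difference of the M effects, 0 to 1 for WT FL, KO FL and KO M, 0 to 10 for IL-33 in WT, 0 to 0 for IL-33 in KO and 0 to 9 for KO against WT averaged over inserts.

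Directions turned for genes that had not passed. For Cdh1 with IL-33 in WT, quantile normalization gave -0.20. Over the left-out libraries, the log2 value for IL-33 in WT ran from -1.31 to 1.48 for Cdh1, -0.61 to 2.60 for Msln, -0.91 to 1.17 for Upk3b, -0.94 to 2.58 for Lrrn4, -0.98 to 1.78 for Krt7, -1.05 to 1.86 for Krt8, -0.68 to 1.82 for Krt18 and -0.040 to 1.87 for Krt19. For IL-33 in KO it ran from -0.65 to 0.54 for Krt18, -0.19 to 1.12 for Krt8 and -1.25 to 0.012 for Upk1b. For KO averaged it ran from -0.85 to 0.54 for Cdh1 and -0.25 to 0.70 for Krt19, for Krt19 in WT FL from -0.19 to 0.11, and for Upk1b in KO FL from -0.030 to 0.054. Depth limits Krt8 and Krt18, at about 5 to 17 reads in the KO libraries, Lrrn4, at about 6 and 9 in KO FL and KO M, and Cdh1, at about 12 to 25 in KO.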
